A study of Mus musculus with 10 samples.

Results

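The genes described here are the D cyclins (Ccnd1, Ccnd2 and Ccnd3), their kinases Cdk4 and Cdk6, the CDK inhibitors Cdkn1a, Cdkn1b, Cdkn2a and Cdkn2c, and Men1, which encodes menin. They were chosen with earlier results of these data known, and all 10 were found by gene symbol among the 47340 genes of the deposited table. RNA was sequenced from pancreatic islets of 5 floxed control (FL) and 5 βFIT2KO (KO) mice, all male, 12 wk old and fed chow, with 1 library per mouse. FIT2, encoded by Fitm2, is a protein of the endoplasmic reticulum that takes part in forming lipid droplets. FL mice carried floxed Fitm2 alleles (FIT2 fl/fl) without Cre, although their genotype label reads wild type. KO mice carried the same floxed alleles together with the transgene B6.Cg-Tg(Ins2-cre)25Mgn/J, in which the rat insulin promoter drives Cre. No islets with Cre alone are among the libraries, so the effect of the transgene and that of the deletion cannot be told apart. Whole islets were cultured overnight before RNA extraction, so every value is an average over all islet cell types.

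D cyclins are made in response to growth signals, bind Cdk4 or Cdk6, and start the phosphorylation of the retinoblastoma protein that lets a cell pass from G1 into S phase. Inhibitors of the INK4 family (Cdkn2a, Cdkn2c) bind Cdk4 and Cdk6 themselves, whereas those of the CIP/KIP family (Cdkn1a, encoding p21, and Cdkn1b, encoding p27) bind cyclin and kinase together. In rodent β cells, Cdk4 and Ccnd2 are known to be needed for the growth of β cell mass after birth, and menin is known to maintain Cdkn1b and Cdkn2c transcription.

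The knockout was checked first. Fitm2 ranged from 15.5 to 37.1 FPKM (fragments per kilobase of transcript, scaled to the mapped reads of the library) in FL islets and from 4.3 to 9.13 FPKM in KO islets, without overlap (log2 fold change = −1.58 ± 0.28 SE, adjusted p = 0.00228 from limma, n = 5 per group). The FPKM table holds no read counts. From the spacing of low values, 1 read in a gene of 1 kb was worth between 0.0186 FPKM in FL5, the deepest library, and 0.0458 FPKM in FL1, the shallowest. All log2 fold changes below are KO against FL on the log2(FPKM + 1) scale, which understates changes of low genes, plain folds are ratios of mean FPKM, and limma was run on genes whose mean reached 1 FPKM in either group, with an adjusted p of 0.05 as the limit for a call.

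All 3 D cyclins and Cdkn1b were lower in KO islets and Cdkn1a was higher, whereas Cdk4, Cdkn2a, Cdkn2c and Men1 did not pass the test. Of the 10 genes, 9 passed the filter, and Cdk6 did not. Of these 9, 5 were called, 4 lower and 1 higher, against 25.5% of the 13065 genes tested. As the genes were chosen with earlier results known, this count is not a test of the set. By direction, 16.5% of all tested genes were called lower and 9.05% higher. In 3 of the 10 genes (Ccnd1, Cdkn1a and Cdkn1b) no FL value lay within the KO range, as in 19.1% of all tested genes (12.5% lower and 6.67% higher in KO), and each gave p = 0.00794 in an exact two-sided permutation test, the smallest that 5 mice against 5 allow. These 3 were called in each of 19 alternative analyses, while the call of Ccnd2 was lost in 8 of the 19 and that of Ccnd3 in 13.

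**Figure D1:**
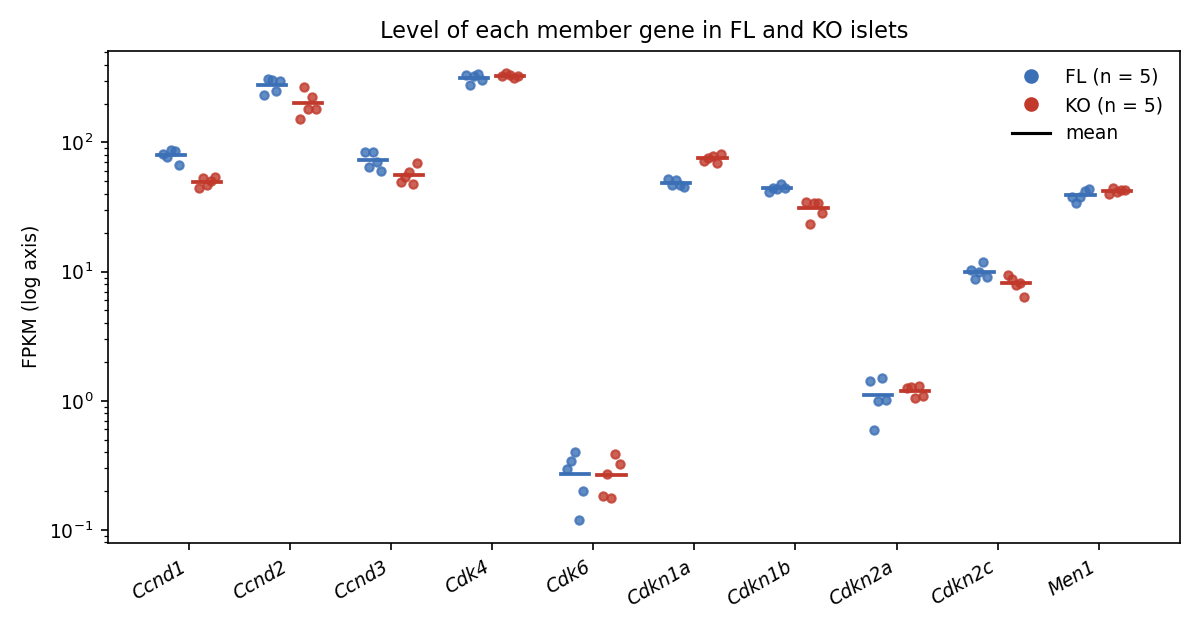
Level of each of the 10 genes in FPKM on a log axis, with 1 point per mouse (5 FL, 5 KO) and a bar at the group mean. The groups are separate for Ccnd1, Cdkn1a and Cdkn1b, Cdk4 and Ccnd2 lie highest, and Cdk6 is at most 0.402 FPKM in all libraries.

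Ccnd1 encodes cyclin D1 and lies on chromosome 7 from 144929931 to 144939925 on the minus strand (GRCm38, as are all coordinates given). Its levels were 81.5, 77.7, 87.4, 85.3 and 66.9 FPKM in FL1 to FL5. In KO1 to KO5 they were 44.1, 53.1, 47, 50.5 and 54.2 FPKM. The lowest FL value, in FL5, was above the highest KO value, in KO5. The mean fell from 79.8 ± 8.08 to 49.8 ± 4.21 FPKM (SD, n = 5), which is 1.60-fold lower in KO (log2 fold change = −0.67 ± 0.08 SE, 95% interval −0.85 to −0.49, adjusted p = 0.000197 from limma).

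Ccnd2 encodes cyclin D2 and lies on chromosome 6 from 127125162 to 127152193 on the minus strand. It was the most abundant D cyclin, at 231, 311, 302, 252 and 299 FPKM in FL1 to FL5. In KO1 to KO5 it was at 151, 268, 180, 223 and 182 FPKM. KO2 lay within the FL range, and the other KO libraries lay below every FL library. The mean fell from 279 ± 35.2 to 201 ± 45.7 FPKM (SD, n = 5; log2 fold change = −0.49 ± 0.15 SE, 95% interval −0.81 to −0.17, adjusted p = 0.03 from limma). With limma the call was lost without FL2 (adjusted p = 0.0654), FL3 (0.0686), FL5 (0.0672), KO1 (0.0641), KO3 (0.0603) or KO5 (0.0653).

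Ccnd3 encodes cyclin D3 and lies on chromosome 17 from 47505051 to 47599691 on the plus strand. Its levels were 84.2, 64.3, 84.1, 70.2 and 59.9 FPKM in FL1 to FL5, and 49, 53.6, 59.2, 47.6 and 69.1 FPKM in KO1 to KO5. KO5 exceeded both FL2 and FL5, and the remaining KO libraries lay below all FL libraries. The mean fell from 72.5 ± 11.2 to 55.7 ± 8.75 FPKM (SD, n = 5; log2 fold change = −0.38 ± 0.12 SE, 95% interval −0.65 to −0.11, adjusted p = 0.0447 from limma). This call sat close to the threshold. With limma it was lost without FL1 (adjusted p = 0.0952), FL3 (0.105), FL4 (0.0711), KO1 (0.102), KO2 (0.076), KO3 (0.0539) or KO4 (0.105), and under each of 3 ways of rescaling the libraries (adjusted p from 0.0783 to 0.11).

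Summed per library, the 3 D cyclins came to 431 ± 31.5 FPKM in FL and 306 ± 48 FPKM in KO islets (SD, n = 5). The sums ranged from 397 to 473 FPKM in FL and from 244 to 375 FPKM in KO, so the highest KO library (KO2) was below the lowest FL library (FL1). The make-up of the sum was similar: Ccnd2 made up 64.6 ± 4.89% in FL and 65.1 ± 5.17% in KO, Ccnd1 18.5 ± 2.21% and 16.4 ± 1.57%, and Ccnd3 16.9 ± 2.94% and 18.5 ± 3.73% (SD, n = 5). Each of these shares overlapped between the groups.

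**Figure D2:**
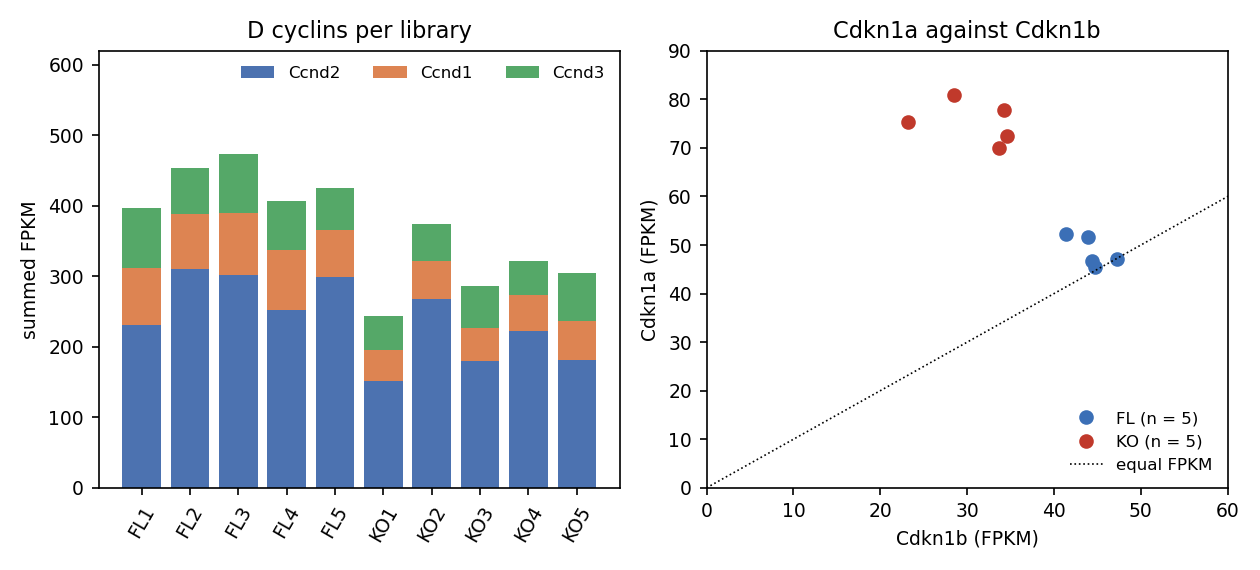
Left, stacked FPKM of Ccnd2, Ccnd1 and Ccnd3 in each of the 10 libraries, and right, Cdkn1a against Cdkn1b in FPKM with 1 point per mouse and a dotted line where the levels are equal. The summed D cyclins are at least 397 FPKM in FL and at most 375 FPKM in KO, and the KO mice lie far above the dotted line, with 2.08 to 3.24 times as much Cdkn1a as Cdkn1b.

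Cdk4, the kinase partner of the D cyclins in islets, lies on chromosome 10 from 127063534 to 127067920 on the plus strand. It was the most abundant of the 10 genes, at 332, 280, 324, 340 and 303 FPKM in FL1 to FL5 and 324, 344, 330, 314 and 326 FPKM in KO1 to KO5. All KO values but that of KO2 lay inside the FL range. The means were 316 ± 24.1 and 328 ± 10.8 FPKM (SD, n = 5; log2 fold change = 0.06 ± 0.06 SE, adjusted p = 0.51 from limma), and the 95% interval of the difference ran from −0.07 to 0.18. Without FL2, the lowest FL library, the log2 fold change was 0.01. The sum of the D cyclins, set against Cdk4 in the same library, was 1.38 ± 0.18 times its level in FL and 0.933 ± 0.132 times in KO (SD, n = 5), from 1.2 to 1.62 in FL and from 0.752 to 1.09 in KO.

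Cdk6, on chromosome 5 from 3341485 to 3531008 on the plus strand, was the lowest of the 10 genes. It was at 0.299, 0.339, 0.402, 0.119 and 0.202 FPKM in FL1 to FL5 and at 0.184, 0.269, 0.176, 0.385 and 0.326 FPKM in KO1 to KO5. The groups overlapped throughout, with means of 0.272 ± 0.112 and 0.268 ± 0.0902 FPKM (SD, n = 5), and an exact two-sided permutation test of the difference gave p = 0.937. Cdk6 was below the level required for the fit over all genes, and by the spacing of low values these levels rest on roughly 51 to 199 reads per library.

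Cdkn1a encodes p21, a general inhibitor of cyclin-dependent kinases and a classical target of p53, and lies on chromosome 17 from 29090976 to 29100727 on the plus strand. Its levels were 52.2, 46.7, 51.6, 47.2 and 45.4 FPKM in FL1 to FL5. In KO1 to KO5 they were 72.4, 75.4, 77.9, 69.9 and 80.8 FPKM. Every KO library was well above every FL library, and the spread within each group was narrow. The mean rose from 48.6 ± 3.08 to 75.3 ± 4.31 FPKM (SD, n = 5), 1.55-fold, with the smallest adjusted p of the 10 genes (log2 fold change = 0.62 ± 0.06 SE, 95% interval 0.50 to 0.75, adjusted p = 2.56e-05 from limma).

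Cdkn1b encodes p27, which restrains quiescent cells from entering the cycle, and lies on chromosome 6 from 134920401 to 134925513 on the plus strand. Its levels were 41.4, 44.4, 43.9, 47.3 and 44.7 FPKM in FL1 to FL5 and 34.6, 23.2, 34.2, 33.7 and 28.5 FPKM in KO1 to KO5. All KO libraries lay below the lowest FL library, and KO2 had the lowest level. The mean fell from 44.3 ± 2.1 to 30.9 ± 4.91 FPKM (SD, n = 5), which is 1.44-fold lower in KO (log2 fold change = −0.52 ± 0.10 SE, 95% interval −0.74 to −0.30, adjusted p = 0.00358 from limma). The 2 CIP/KIP inhibitors changed in opposite directions. Within a library, Cdkn1a was at 1.1 ± 0.114 times the level of Cdkn1b in FL and 2.5 ± 0.512 times in KO (SD, n = 5), with ranges of 0.997 to 1.26 and 2.08 to 3.24.

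The sequences directly upstream of Cdkn1b, Cdkn1a and Cdk4 are shown because these genes fell, rose and did not pass the test, respectively. They are the 250 bases before a RefSeq start (GRCm38.p6, plus strand, 5′ to 3′), with matches to the searched motifs in capitals. For Cdkn1a the downstream of 2 starts is shown. Its window lies inside the coordinates given for the gene and also overlaps an exon of AC167363.2 on the other strand.
Cdkn1b, chr6:134920151-134920400: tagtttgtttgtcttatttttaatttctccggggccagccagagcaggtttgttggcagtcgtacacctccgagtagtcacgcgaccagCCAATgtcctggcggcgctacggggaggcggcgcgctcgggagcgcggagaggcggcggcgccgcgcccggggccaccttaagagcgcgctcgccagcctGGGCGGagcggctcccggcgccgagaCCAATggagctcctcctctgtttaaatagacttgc
Cdkn1a, chr17:29093519-29093768: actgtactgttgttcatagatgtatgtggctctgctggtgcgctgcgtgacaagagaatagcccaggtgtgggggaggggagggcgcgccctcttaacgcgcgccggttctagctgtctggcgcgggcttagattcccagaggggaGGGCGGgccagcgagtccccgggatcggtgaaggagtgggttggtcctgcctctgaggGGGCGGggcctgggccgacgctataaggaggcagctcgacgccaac
Cdk4, chr10:127063285-127063534: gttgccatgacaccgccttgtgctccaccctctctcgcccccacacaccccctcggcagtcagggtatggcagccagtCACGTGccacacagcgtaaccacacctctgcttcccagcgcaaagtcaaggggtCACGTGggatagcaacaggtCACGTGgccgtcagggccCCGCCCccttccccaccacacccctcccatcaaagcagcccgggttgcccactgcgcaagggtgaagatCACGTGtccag
Motifs were searched on both strands as the GC box (GGGCGG), the CCAAT box (CCAAT), an E box (CACGTG), an E2F site (TTTCGCGC), a forkhead core (TGTTTAC) and a STAT site (TTCNNNGAA). The Cdkn1b window held 1 GC box and 2 CCAAT boxes, and the Cdkn1a window shown held 2 GC boxes. The window of the upstream Cdkn1a start, not shown, held no match to any of these motifs. The Cdk4 window held 4 E boxes and 1 GC box. No matches overlapped in these windows. Of 32851 windows of the same length, 32.7% held a GC box, 33.8% a CCAAT box and 6.02% an E box. Windows were found for 8 of the 10 genes (Ccnd1 and Ccnd2 not among them), and a match of letters is a description, not a binding site.

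Cdkn2a, which encodes both p16Ink4a and p19Arf from separate first exons, lies on chromosome 4 from 89274471 to 89294653 on the minus strand. The table gives 1 value for the gene, so these products cannot be told apart. It was low, at 1.42, 0.596, 0.999, 1.49 and 1.02 FPKM in FL1 to FL5 and 1.25, 1.27, 1.06, 1.3 and 1.08 FPKM in KO1 to KO5, or roughly 23 to 64 reads per library. The KO values lay inside the FL range, and the means were 1.1 ± 0.36 and 1.19 ± 0.116 FPKM (SD, n = 5; log2 fold change = 0.08 ± 0.12 SE, 95% interval −0.20 to 0.35, adjusted p = 0.693 from limma).

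Cdkn2c encodes p18Ink4c and lies on chromosome 4 from 109660876 to 109667189 on the minus strand. It was at 10.2, 8.71, 9.86, 11.8 and 9.02 FPKM in FL1 to FL5 and at 9.46, 8.72, 7.9, 8.21 and 6.4 FPKM in KO1 to KO5. The groups overlapped. The means were 9.92 ± 1.21 and 8.14 ± 1.14 FPKM (SD, n = 5; log2 fold change = −0.26 ± 0.10 SE, 95% interval −0.48 to −0.04), and the difference did not pass after adjustment over all genes (adjusted p = 0.0808 from limma, unadjusted p = 0.025). Its adjusted p stayed between 0.055 and 0.165 in all 19 alternative analyses.

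Men1, on chromosome 19 from 6334979 to 6340891 on the plus strand, encodes menin, the scaffold of a histone methyltransferase complex. It was at 37.7, 34, 37.5, 42.4 and 43.5 FPKM in FL1 to FL5 and at 40, 44.1, 41.2, 43.2 and 42.7 FPKM in KO1 to KO5. The groups overlapped, with means of 39 ± 3.89 and 42.3 ± 1.63 FPKM (SD, n = 5; log2 fold change = 0.12 ± 0.07 SE, 95% interval −0.03 to 0.26, adjusted p = 0.227 from limma). Without FL2 the log2 fold change was 0.07. Of the inhibitors that menin is known to maintain, Cdkn1b fell and Cdkn2c did not pass the test.

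**Figure D3:**
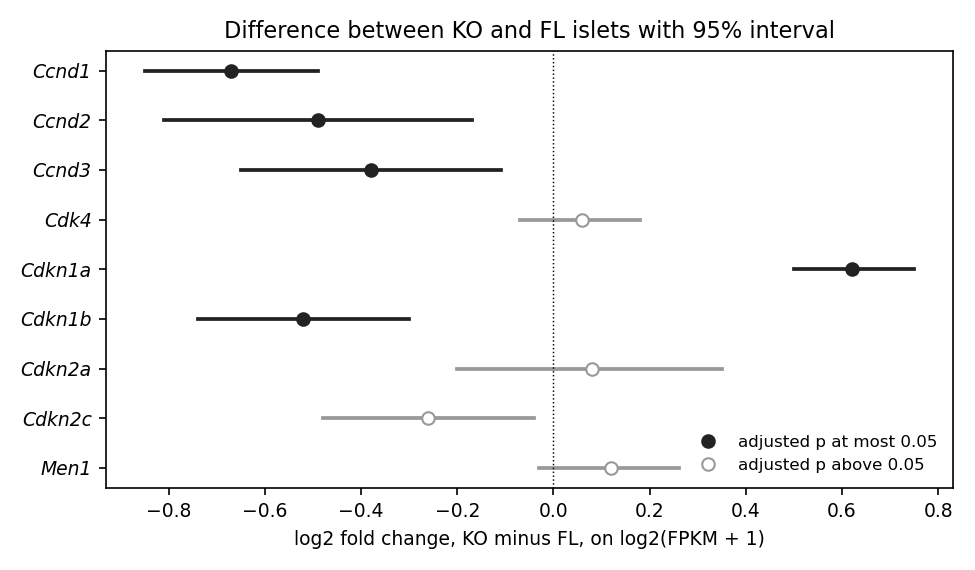
Log2 fold change, KO minus FL, of the 9 genes tested, with 95% intervals from limma, filled where the adjusted p was at most 0.05. Ccnd1, Ccnd2, Ccnd3 and Cdkn1b lie below 0 and Cdkn1a above it, while the intervals of Cdk4, Cdkn2a and Men1 cross 0.

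FPKM are given per length, so the genes can also be set in order within a group. In FL islets the order of the mean levels was Cdk4, Ccnd2, Ccnd1, Ccnd3, Cdkn1a, Cdkn1b, Men1, Cdkn2c, Cdkn2a and Cdk6. The ranges of neighbours overlapped for Cdk4 and Ccnd2, for Ccnd1 and Ccnd3, for Cdkn1a and Cdkn1b, and for Cdkn1b and Men1. In KO islets Cdkn1a stood next after Cdk4 and Ccnd2, above Ccnd3 and Ccnd1, and Cdkn1b stood below Men1. There the overlapping neighbours were Ccnd3 with Ccnd1 and Ccnd1 with Men1. Cdk4 was above Ccnd2 without overlap in KO, at 314 to 344 against 151 to 268 FPKM.

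Some of the genes share bases with a gene on the opposite strand. The libraries were stranded, but whether strand was used in counting is not given in the sources used here, and without it the reads could not be told apart. The exons of Ccnd1 overlap LTO1 (15.2 to 21.1 FPKM), those of Cdk4 overlap Tspan31 (76.9 to 87.8 FPKM) and those of Ccnd3 overlap Bysl (6.53 to 7.14 FPKM). Ccnd2 overlaps 9330179D12Rik, which was at most 1.51 FPKM, Cdkn1a overlaps AC167363.2, for which no level was used here, and reads of Ccnd3 could also be split with its pseudogene Ccnd3-ps.

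The rest of the pathway was read from lists of related genes, also chosen with earlier results of these data known. Their counts are therefore not tests of the lists. Over all genes tested the median log2 fold change was −0.06, and 9.05% were called higher and 16.5% lower. Among 14 G1 partners of the D cyclins, 1 was called higher and 1 lower, with a median of −0.02. Ccne1, encoding cyclin E1, the partner of Cdk2 at entry to S phase, rose from 2.39 ± 0.318 to 3.38 ± 0.451 FPKM (SD, n = 5; adjusted p = 0.0157 from limma) without overlap. Cdk2 was at 1.47 ± 0.1 and 1.66 ± 0.254 FPKM (SD, n = 5; adjusted p = 0.421 from limma). Mnat1, a subunit of the CDK-activating kinase, was the gene called lower, from 16.5 to 14.6 FPKM (adjusted p = 0.0483 from limma). With limma its call was lost without FL1 (adjusted p = 0.0594), FL3 (0.114), FL4 (0.0954), FL5 (0.0965), KO2 (0.0896), KO4 (0.1) or KO5 (0.0952). Counting all settings, the Mnat1 call was lost in 15 of the 19 alternative analyses. These included a pseudocount of 0.1 (adjusted p = 0.0506 from limma), no filter (0.0686), sample weights (0.0559) and no variance trend (0.0557). The 3 rescalings were also among them (median ratio 0.116, TPM 0.0987, quantile 0.131). Of 3 tested CDK inhibitors outside the set, Cdkn2d, encoding p19Ink4d, fell from 15.1 ± 0.259 to 12.3 ± 1.4 FPKM (SD, n = 5; adjusted p = 0.0141 from limma), and none of the 3 was called higher.

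Of 15 tested retinoblastoma pocket proteins, E2F factors and their partners, 1 rose and 2 fell (against 9.05% and 16.5% of all genes tested), with a median of −0.13. E2f1, an activator of S phase genes, rose from 5.7 ± 0.21 to 7.01 ± 0.584 FPKM (SD, n = 5; adjusted p = 0.00975 from limma). E2f5, a repressive E2F, and Lin52, a DREAM complex subunit, fell by 0.25 each on the log2 scale (adjusted p = 0.0112 and 0.0191 from limma). Rb1 itself was at 15.1 ± 2.88 and 12.3 ± 1.12 FPKM (SD, n = 5; adjusted p = 0.108 from limma). Of 22 S phase and mitosis genes only 10 were high enough to test, and 1 was called. That gene was Mcm2, a subunit of the replicative helicase, which rose from 9.91 ± 1.33 to 14.1 ± 1.03 FPKM (SD, n = 5; adjusted p = 0.00295 from limma). Mki67, the usual mark of cycling cells, was below the filter at 0.453 ± 0.118 and 0.456 ± 0.137 FPKM (SD, n = 5).

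Of 18 genes of p53 and its targets other than Cdkn1a, 4 rose and 2 fell (against 9.05% and 16.5% of all genes tested), with a median of 0.08. Phlda3, an inhibitor of AKT signalling, rose from 10.7 ± 0.659 to 20 ± 2.61 FPKM (SD, n = 5; adjusted p = 4.07e-05 from limma), Perp from 12.7 to 18.9 FPKM (0.00166) and Mdm2, which targets p53 for degradation, from 42 to 51.5 FPKM (0.0189). Phlda3, Perp and the 2 genes that fell did not overlap between the groups, as 19.1% of all genes tested did not. The fourth gene was Ccng1 (adjusted p = 0.0432 from limma), named here after its values were seen, as were Mki67 above and Ei24 and Trp53 below. The Ccng1 call was lost without FL1 (adjusted p = 0.0889 from limma), FL2 (0.0888), FL3 (0.0738), FL5 (0.0979), KO1 (0.0986), KO2 (0.0501), KO3 (0.0877) or KO4 (0.0746). It was also lost with no filter (adjusted p = 0.0866 from limma). Sesn1 fell from 15.8 to 12.9 FPKM (adjusted p = 0.0231 from limma, 0.0516 without KO1 and 0.0574 with TPM), and Ei24 from 112 to 98.1 FPKM (0.0407). The Ei24 call was lost without FL3 (adjusted p = 0.0969 from limma), FL4 (0.0821), KO1 (0.0906), KO4 (0.0942) or KO5 (0.0812). It was also lost with no filter (adjusted p = 0.0601 from limma), median-ratio rescaling (0.0615), TPM (0.0891) or quantile normalization (0.0737). Trp53, encoding p53, had a log2 fold change of 0.11 and was not called (adjusted p = 0.213 from limma).

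Regulators of Cdkn1b and of D cyclin protein were also read. Foxo1, a transcription factor that activates Cdkn1b in several tissues, fell from 13 ± 0.593 to 10.1 ± 0.517 FPKM (SD, n = 5; adjusted p = 0.000642 from limma) without overlap. Rnf123, a ubiquitin ligase for p27, fell from 33.1 to 26.4 FPKM (adjusted p = 0.0221 from limma, 0.0505 without KO5 and 0.0582 with quantile normalization). These were the 2 genes called of 14 tested for turnover of D cyclins and p27, against 16.5% of all genes tested called lower. The median of the 14 was −0.06. Of 8 genes of the menin and MLL complex other than Men1, 3 fell and none rose (against 16.5% and 9.05% of all genes tested). Hcfc1 fell from 24 to 19.1, Rbbp5 from 26.8 to 23.2 and Kmt2b from 13 to 10.2 FPKM (adjusted p = 0.0117, 0.0181 and 0.0271 from limma). With quantile normalization the calls of Hcfc1 (adjusted p = 0.0506 from limma) and Rbbp5 (0.0515) were lost. The Kmt2b call was lost without FL3 (adjusted p = 0.0562 from limma), FL4 (0.0612), FL5 (0.0608), KO3 (0.0519) or KO4 (0.0561). It was also lost with no filter (adjusted p = 0.0557 from limma). Of 13 Polycomb repressors, known to silence Cdkn2a, 3 were called lower, against 16.5% of all tested genes, and none higher. Among them, Rnf2 and Ezh1 fell by 0.29 and 0.19 on the log2 scale (adjusted p = 0.0118 and 0.0138 from limma), and the Ezh1 call was lost with TPM (0.0603).

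**Figure D4:**
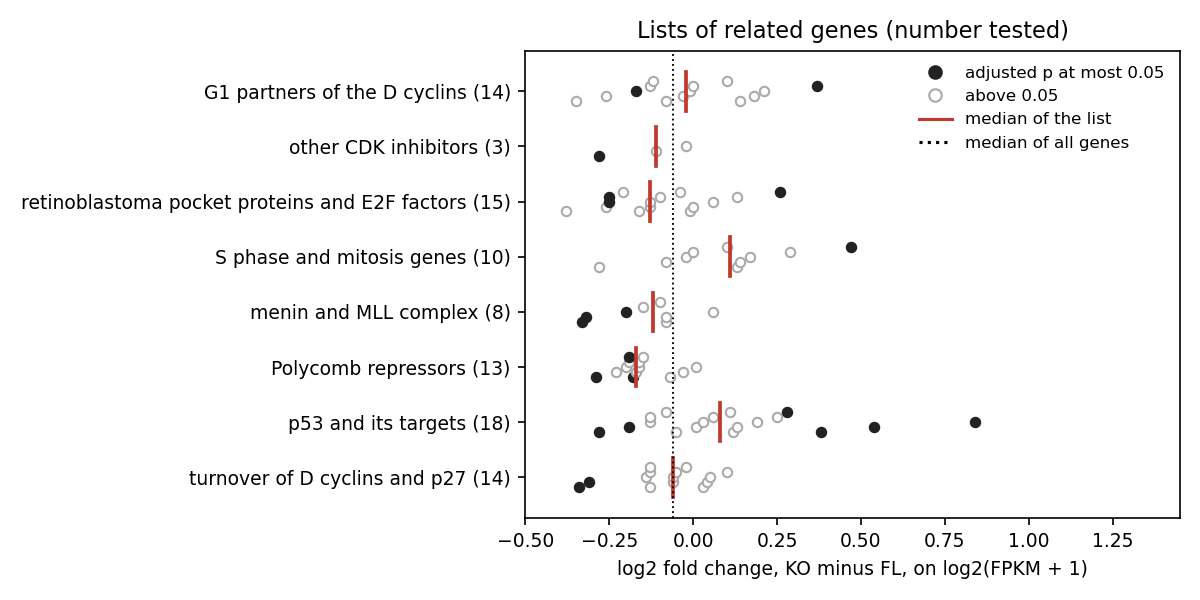
Log2 fold change, KO minus FL, of each tested gene in 8 lists around the D cyclins, with 1 point per gene, filled where the adjusted p from limma was at most 0.05, a red bar at the list's median and a dotted line at the median of all genes tested (−0.06). List medians run from −0.17 for Polycomb repressors to 0.11 for S phase and mitosis genes, and Phlda3 of the p53 list is farthest to the right at 0.84.

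Markers of several cell types moved with the groups, and the sums of acinar, duct, endothelial, and δ and PP cell markers overlapped between them. Over all genes tested, 16.5% were called lower and 9.05% higher. Of 7 tested β cell markers 6 were called lower and none higher, and their summed level was 2273 to 2844 FPKM in FL and 1511 to 2124 FPKM in KO. Of these defining β cell markers, Ins1, Ins2 and Iapp are listed at 0 in all libraries, as is Gcg among those of α cells. Summed α cell markers were 555 to 762 FPKM in FL and 351 to 512 FPKM in KO, with 3 of 7 called lower. Endothelial markers summed to 179 to 211 FPKM in FL and 205 to 270 FPKM in KO (5 of 10 called higher), leukocyte markers to 137 to 162 and 192 to 230 FPKM (3 of 8 higher, 1 lower), and stellate and fibroblast markers to 19.6 to 31 and 37 to 47 FPKM (6 of 7 higher). Duct markers summed to 615 to 677 and 528 to 665 FPKM (1 higher and 1 lower of 6), markers of δ and PP cells to 10828 to 26726 and 16538 to 22677 FPKM (1 of 6 lower), and acinar markers to 4562 to 12192 and 3046 to 22345 FPKM (0 of 13 called). In islet RNA, fewer cells of a type and less RNA per cell cannot be told apart, and the part of these shifts in the levels of the D cyclins, Cdkn1a and Cdkn1b was not tested.

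For each called gene, the genes whose pattern over the 10 libraries was most alike were sought by the root mean square difference of log2(FPKM + 1) values centred on the FL mean. Ccnd1 was most like Cpm, a carboxypeptidase (difference 0.0749; 8.55 FPKM in FL and 4.78 in KO), and then Gm17733 (0.0871; 2.3 and 1.16 FPKM). Ccnd2 was most like Baiap3 (0.0892; 68.8 and 48.4 FPKM) and Vangl2 (0.128; 1.67 and 1.01 FPKM). Ccnd3 was most like Pafah1b3 (0.12; 40.5 and 32.7 FPKM) and Sfrp5 (0.123; 21.3 and 16.6 FPKM). Cdkn1a was most like Gm4262 (0.0714; 0.458 and 1.19 FPKM) and Stk32b (0.0853; 1.77 and 3.25 FPKM). Cdkn1b was most like Fgfbp3 (0.0606; 5.11 and 3.14 FPKM) and Rhobtb3 (0.0647; 11.9 and 7.85 FPKM). Of these, lower genes such as Gm17733, Vangl2, Gm4262 and Stk32b had larger ratios of mean FPKM than the gene of the set they were set beside, so their likeness depends on the pseudocount of 1. No gene of the set was among these nearest patterns of another.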

How the data were processed

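Poly(A) RNA was sequenced as stranded, single-end 75-nt reads. The submitters' processing notes name STAR 2.5.2a and Cuffnorm 2.2.1 and build mm10 (GRCm38), and the authors deposited 1 table of FPKM, normalized for gene length and depth, with no read counts. The 10 genes and the gene lists were chosen with earlier results of these data known, and rows were found by symbol. Coordinates came from GENCODE M21, in which Cdkn1a and Men1 matched without their version only. FL and KO were compared over 13065 genes with limma 3.58.1 in R 4.3.3 (trend on) on log2(FPKM + 1), with no covariate and Benjamini-Hochberg adjustment. Genes named were the 10, up to 4 called genes per list with the smallest adjusted p, Rb1, E2f1, Cdk2 and Ccne1 in any case, the 2 genes most like each called gene, and Fitm2. Mki67, Trp53, Ccng1 and Ei24 were named outside this rule. For 1 further gene under this rule no values are reported here, and list counts include it. Cdk6 was compared with an exact permutation test. Labels name separate samples, and p-values measure the spread between them.

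The fit was tested on simulated data for KO against FL over 13065 genes with 200 changed and independent errors. It called 65 of 100 genes changed by 0.5 and 92 of 100 changed by 1 on the log2 scale. These calls were all in the right direction, and 4 of 12865 unchanged genes were also called. In the data themselves 3333 genes were called, and the share called depends on how many genes change. The simulated shares therefore need not hold for this comparison. The alternatives were a pseudocount of 0.1, no filter or a mean of at least 5 FPKM, 3 rescalings (median ratio, TPM, quantile), sample weights, no variance trend, the replicate number as a block, and leaving out each mouse. Summaries were made in pandas 2.3.3 and numpy 2.4.6 under Python 3.11.15, and plots in matplotlib 3.10.9. Promoter sequences were those of RefSeq.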

Additional observations from a re-analysis of the deposited data

Results flagged for a closer look

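Of 68 groups of 5 mice (34 genes, the 10 described above among them), 2 held a mouse set apart from the rest by Dixon's criterion, where chance gives about 1 in 20 groups, or 3.4. For Cdk2, KO3 was lowest at 1.23 FPKM, with the other KO mice at 1.67 to 1.85 FPKM. For E2f1, FL5 was lowest at 5.34 FPKM, with the other FL mice at 5.71 to 5.84 FPKM, and the call of E2f1 held without each mouse in turn. None of the 20 groups of the D cyclins, their kinases, the CDK inhibitors and Men1 held such a mouse.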

How the results depend on the processing

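Over 19 alternatives, Ccnd1 (−0.73 to −0.61), Cdkn1a (0.59 to 0.68) and Cdkn1b (−0.57 to −0.43) kept their direction and their call, with adjusted p from limma of 9.17e-05 to 0.00515, 1.9e-05 to 0.00147 and 0.00136 to 0.0138. Cdk4, Cdkn2c and Men1 were called in none. Of the 10 genes, 5 were called in the analysis reported, 3 when low genes were not filtered out and 3 with TPM, and 3 to 4 without a single mouse, the 3 arising without FL3, KO1 or KO3. Ccnd2 was not called without a filter (−0.49, adjusted p = 0.0661 from limma) or with TPM (−0.45, 0.0595), and its fold change ran from −0.60 to −0.40 without single mice. Ccnd3 was not called without a filter (−0.38, adjusted p = 0.089 from limma), with median-ratio rescaling (−0.33, 0.0912), TPM (−0.33, 0.0783) or quantile normalization (−0.31, 0.11), or without the variance trend (−0.38, 0.0509), and ran from −0.46 to −0.32 without single mice. The cause was not tested. Cdkn2a (0.08) ran from −0.02, without FL2 (adjusted p = 0.913 from limma), to 0.14 without single mice, and gave no value at a mean of at least 5 FPKM. The difference in Cdk6 (−0.0043 FPKM) was 0.0056 after median-ratio rescaling and 0.0069 with TPM, and ran from −0.043 to 0.028 without single mice. It turned positive without FL1 (0.0023), FL2 (0.012), FL3 (0.028), KO1 (0.017) or KO3 (0.019). Over all genes, 2368 to 4273 were called, and the share of called genes that were lower, 64.5% as reported, was 52.1% after median-ratio rescaling, 51.1% with TPM and 52.9% with quantile normalization. Under these 3 rescalings, 1 to 3 genes of the menin and MLL complex were called lower (3 as reported), 1 to 3 Polycomb repressors (3), 0 to 1 of p53 and its targets (2) and 0 G1 partners (1), while 1 to 3 G1 partners (1) and 4 genes of p53 and its targets were called higher (4) and S phase and mitosis genes called higher went from 1 to 2. With sample weights, 2839 of all genes were called lower (2150 as reported). Lower calls rose to 6 Polycomb, 4 E2F, 3 p53, 3 turnover and 2 G1 genes. Higher S phase calls rose to 3, and other list counts held. Without single mice, Polycomb calls were 2 to 4. Lower p53 calls were 0 without KO1 and 1 without FL3, FL4, KO4 or KO5. Higher S phase calls were 2 without FL1, KO3 or KO5. Lower G1 calls were 2 without KO3 and 0 without FL1, FL3, FL4, FL5, KO2, KO4 or KO5, and higher ones 2 without KO4 or KO5. Lower turnover calls were 1 without KO5 (2). No rescaling moved the median of all genes by more than 0.1 on the log2 scale.

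The replicate numbers did not pair the mice: deviations of FL and KO mice with the same number correlated at −0.10 to 0.00, and 0 of 5 mice matched their own number best. With the replicate number as a block, 2368 genes were called in place of 3333, and 4 of the 10 genes, Ccnd3 being lost (−0.38, adjusted p = 0.096 from limma). Among the other genes named, the block also lost the calls of Mnat1, Lin52, Kmt2b, Rbbp5, Ccng1 and Ei24 and added that of Rb1 (adjusted p = 0.0486 from limma). Cdk6 and Cdkn2a had the lowest mean levels of the 10 genes in both groups, at roughly 51 to 199 and 23 to 64 reads per library. FPKM give no counting error, and how far depth limits these 2 genes was not tested.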
